A study of Mus musculus with 2 samples.

Results

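The regions described here are 4830 H4K12la peaks of control Neuro2a cells that overlapped, by at least 1 bp, a peak of lactate-treated cells and that lay within 1 kb of an annotated end of exactly 1 protein-coding gene. They were taken from 46561 control peaks on chromosomes 1 to 19 and X, and belong to 4348 of 21631 protein-coding genes on those chromosomes, or 20.1%. Neuro2a is a mouse neuroblastoma line. One library came from cells that received NaCl and 1 from cells that received 25 mM lactate, both grown in serum-containing medium on collagen-coated plates and profiled by CUT&Tag, in which a transposase tethered by the antibody cuts DNA beside the mark. Each group was 1 library, so no difference below has a replicate check, no test was run, and intervals cover counting error or the spread over pairs only. The peaks were selected by the calls of both lists, so their widths and heights are given as a description.

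H4K12la is a lactyl group on lysine 12 of histone H4, a residue of the histone tail that can also carry an acetyl group. Lactylation of histones draws on lactyl groups derived from lactate, the end product of glycolysis. Acylated H4 tails are typical of nucleosomes around the starts of transcribed genes, where promoters rich in the dinucleotide CG are common and the factors that read such promoters bind short motifs. The GC box is bound by Sp1-type factors, the CCAAT box by NF-Y, and the cAMP response element by CREB-type factors.

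Sequences just before a listed start are shown for 4 genes at which the lactate peak was at least 2 times as tall. Hic2 and Zfp62 are among the 6 genes with the largest height ratios ranked below, though not the first of them. The sequences come from RefSeq's promoters on GRCm38.p6 (mm10). Hic2 and Zfp62 encode zinc finger proteins, Eno1 encodes the glycolytic enzyme enolase, and Mcm6 encodes a subunit of the replicative helicase. Each run is the 250 bases before the table's start, 5′ to 3′ on the gene's strand, and overlaps both peaks. At Zfp62 and Eno1 that start and the run lie inside the annotated gene, past its 5′ end. The positions are chr16:17233337-17233586 (plus strand) for Hic2, chr11:49203481-49203730 (plus) for Zfp62, chr4:150236947-150237196 (plus) for Eno1 and chr1:128359706-128359955 (minus) for Mcm6. Capitals mark the GC box GGCGG, the CCAAT box, the TATA box TATAAA, the cAMP response element TGACGTCA, the ETS-type motif CCGGAAG and the NRF1 core GCATGCGC, on either strand.
Hic2: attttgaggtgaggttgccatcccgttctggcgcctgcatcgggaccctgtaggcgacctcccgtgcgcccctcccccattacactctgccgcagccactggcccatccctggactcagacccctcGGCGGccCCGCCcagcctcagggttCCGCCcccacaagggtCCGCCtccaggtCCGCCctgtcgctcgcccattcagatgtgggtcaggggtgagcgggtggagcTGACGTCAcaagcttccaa
Zfp62: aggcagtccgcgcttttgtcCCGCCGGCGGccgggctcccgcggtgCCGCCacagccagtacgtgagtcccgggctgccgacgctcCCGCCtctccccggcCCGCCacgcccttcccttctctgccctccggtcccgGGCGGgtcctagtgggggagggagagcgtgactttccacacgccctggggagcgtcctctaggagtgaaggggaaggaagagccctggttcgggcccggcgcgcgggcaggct
Eno1: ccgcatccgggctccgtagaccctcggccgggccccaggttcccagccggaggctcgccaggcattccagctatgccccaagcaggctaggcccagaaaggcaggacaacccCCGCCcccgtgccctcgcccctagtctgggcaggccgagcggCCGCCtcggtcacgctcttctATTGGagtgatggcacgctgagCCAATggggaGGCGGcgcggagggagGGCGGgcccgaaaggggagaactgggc
Mcm6: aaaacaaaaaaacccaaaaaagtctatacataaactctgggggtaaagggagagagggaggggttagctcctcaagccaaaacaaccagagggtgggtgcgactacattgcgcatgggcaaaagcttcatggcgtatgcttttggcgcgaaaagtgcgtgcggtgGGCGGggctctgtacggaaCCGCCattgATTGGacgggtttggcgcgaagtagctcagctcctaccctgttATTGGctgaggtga

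The Hic2 run holds 5 GC boxes and 1 cAMP response element, Zfp62 6 GC boxes, Eno1 4 GC boxes and 2 CCAAT boxes, and Mcm6 2 of each. They hold 17, 28, 21 and 13 CG dinucleotides. For comparison, 3 genes are shown whose lactate peak was no taller than the control peak. Isl1 encodes a transcription factor of sympathetic and motor neurons, Gtf2b the general factor TFIIB, and Zfp971 a zinc finger protein. The positions are chr13:116309689-116309938 (minus) for Isl1, chr3:142764997-142765246 (plus) for Gtf2b and chr2:178023034-178023283 (plus) for Zfp971.
Isl1: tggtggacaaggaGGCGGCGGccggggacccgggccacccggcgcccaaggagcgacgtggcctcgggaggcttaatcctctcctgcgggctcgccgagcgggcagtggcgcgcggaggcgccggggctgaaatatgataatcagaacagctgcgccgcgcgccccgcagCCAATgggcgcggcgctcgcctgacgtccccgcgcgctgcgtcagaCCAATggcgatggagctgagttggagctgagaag
Gtf2b: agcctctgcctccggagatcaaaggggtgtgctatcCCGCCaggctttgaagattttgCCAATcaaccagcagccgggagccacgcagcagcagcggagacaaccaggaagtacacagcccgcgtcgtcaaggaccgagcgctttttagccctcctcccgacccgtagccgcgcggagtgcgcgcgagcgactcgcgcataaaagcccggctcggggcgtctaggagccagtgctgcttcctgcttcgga
Zfp971: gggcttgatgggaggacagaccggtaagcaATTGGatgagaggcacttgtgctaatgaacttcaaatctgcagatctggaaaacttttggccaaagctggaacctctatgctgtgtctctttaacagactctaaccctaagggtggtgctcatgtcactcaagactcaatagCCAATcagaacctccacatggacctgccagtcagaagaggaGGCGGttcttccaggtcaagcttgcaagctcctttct

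Zfp971 holds 2 CG dinucleotides, 1 GC box and 2 CCAAT boxes, while Isl1 holds 33 and Gtf2b 25 CG dinucleotides. Eno1, Mcm6, Isl1 and Gtf2b were chosen for display after their values were seen.

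At the shared gene-end peaks the lactate peak was usually both taller and wider. Height is the summit pileup, the number of overlapping reads at the tallest base, worked out from the authors' deposited fold and −log10 p. Its median was 16 control reads against 26 with lactate. The median ratio within a pair, lactate over control, was 1.54 (95% interval of the median 1.53 to 1.56), and the middle 90% of pairs ran from 1.0 to 2.23. The lactate summit was higher in 4512 of 4830 pairs (93.4%), equal in 86 and lower in 232. Over all 17540 shared pairs in the genome, these among them, 70.9% had the higher summit in the lactate library. Control peaks had a median width of 305 bp and lactate peaks one of 576 bp, and the median width ratio was 1.64 (1.59 to 1.68). The lactate peak was the wider in 4047 pairs, or 83.8%, against 64.2% of all shared pairs.

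A ratio of at least 1.5 in summit reads was reached by 2747 pairs, 56.9%, and a ratio of at most 1/1.5 by 35 pairs, 0.725%. The same bounds were passed by 30.8% and 5.18% of all shared pairs. Depth, estimated from the genome-wide background of 2.96 control and 3.06 lactate reads, differed by 3.43%. Scaled for it, the median ratio was 1.49 and the share at 1.5 or more was 49.0%. The deposited fold enrichment, which divides the summit by the local background of the same library, hardly differed. Its medians were 3.79 (control) and 3.99 (lactate), with a median ratio of 1.02 (1.01 to 1.03), and 3.31% of pairs reached 1.5. The local background had a median of 3.30 control and 5.72 lactate reads, a median ratio of 1.63 (1.62 to 1.64), and was higher in the lactate library in 97.3% of pairs. That background moved in steps of 0.02 reads, the step 1 read of 200 bp gives over 10 kb, so it is counted over a stretch that holds the peak itself.

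**Figure D1:**
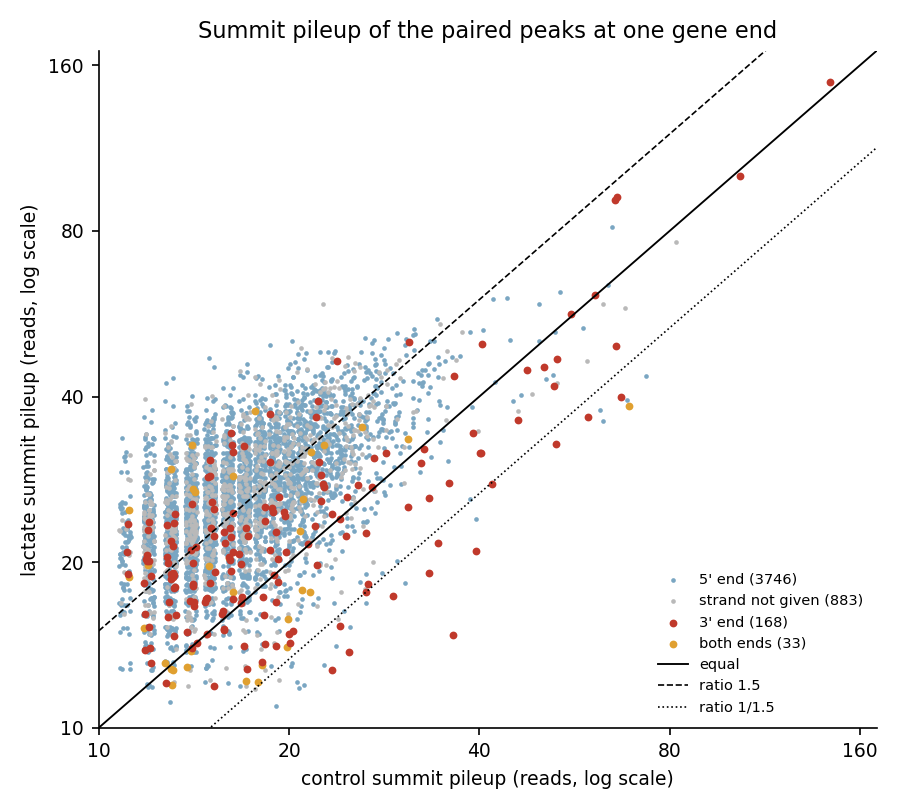
Each point is 1 pair of peaks, with control summit reads on the x axis and lactate summit reads on the y axis (log scales, points shifted slightly so that equal counts can be seen), coloured by the gene end. Most of the 4830 points lie above the line of equality and 56.9% on or above the dashed line of ratio 1.5, while points at 3′ ends (red) lie closer to equality.

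Height and width moved together in most pairs. The lactate peak was both wider and taller in 3918 pairs (81.1%), narrower but taller in 588, wider without being taller in 129, and narrower without being taller in 186. Over the 4830 pairs the log2 ratios of width and summit reads had a Pearson r of 0.492 and a Spearman rho of 0.445. All points of that description share the same 2 libraries. The control peak lay wholly inside the lactate peak in 2750 pairs (56.9%), the reverse held in 294, and each reached past the other in 1786. Summits were a median of 96 bp apart, and 92.0% of control summits lay inside the lactate peak. A lactate peak took in 2 or more of the control peaks 290 times, so that the 4830 control peaks had 4533 distinct partners, while 78 control peaks overlapped 2 lactate peaks. The control peaks covered 1.73 Mb with a mean width of 358 bp and their partners 2.67 Mb with a mean width of 589 bp. Only 22 of the partners reached the end of a further gene.

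Lower control summits went with larger ratios. The 407 pairs with 11 or 12 control reads, at the floor of what was called, had a median summit ratio of 1.83 and a median width ratio of 3.01. Pairs with 21 to 25 control reads had 1.40 and 1.32, and the 17 pairs with 61 to 146 control reads had 0.915 and 0.871. A control count that is low by sampling raises the ratio, so the pairs were also sorted by the reads of both peaks together. Sorted that way, the median summit ratio was 1.18 (1.15 to 1.23) at 24 to 30 reads, 1.62 (1.59 to 1.63) at 41 to 50 reads and 1.56 (1.52 to 1.61) at 61 to 80 reads. It was 1.02 (0.931 to 1.27) in the 65 pairs with 81 to 296 reads, where the control background had a median of 10.1 reads. Both peaks needed at least 11 reads to be called, which limits how large a ratio can be at the lowest sums, so the low value there gives no relation to height. Of 6051 control peaks at 1 gene end, 4830 had a lactate partner and 1221 had none. Those 1221 had a median of 14 reads and a width of 164 bp. Over the whole control list a smaller part was shared, 17540 of 46561 peaks.

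The rule did not ask which end of the gene a peak met. Gene strand was given for 3545 of the 4348 genes, and where it was given most pairs lay at starts. By it, 3746 pairs met the 5′ end alone, 168 the 3′ end alone and 33 both ends of a short gene, and for 883 the strand was not given. At 5′ ends the median summit ratio was 1.56 (1.54 to 1.57) and the median width ratio 1.69 (1.64 to 1.74). At 3′ ends the medians were 1.19 (1.08 to 1.25) and 1.07 (0.991 to 1.18), from nearly the same control height, 17 reads against 16. A ratio of at least 1.5 was reached by 58.5% of 5′ pairs and 22.6% of 3′ pairs. Of the 3′ pairs, 161 had no start of the promoter table within 1 kb, and their medians were again 1.19 and 1.07. The difference between gene ends rests on 1 library per group and was not tested.

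At gene starts the summits sat just inside the gene. The median control summit was 109 bp past the annotated 5′ end (101 to 118) and the median lactate summit 97 bp (92 to 103). Measured from the nearest start of the promoter table instead, a choice made after the data were seen, they were 43 and 36 bp past it. The control peak covered the start itself in 1789 of 3746 pairs (47.8%) and the lactate peak in 2644 (70.6%). The lactate peak extended farther on both sides. Its upstream edge lay a median of 80.5 bp farther out (75 to 86) and its downstream edge 99 bp (92 to 107), and both edges lay farther out in 56.8% of pairs. The 2 gains differed by a median of 15 bp (7 to 25) in favour of the downstream side. Of 231 lactate peaks that joined 2 control peaks of 1 gene start, 44 had the start between the joined peaks. By the position of the control summit, the median summit ratio ran from 1.65 (1.48 to 1.75) more than 500 bp before the start to 1.5 (1.47 to 1.54) at 200 to 500 bp after it, and was 1.58 (1.54 to 1.62) at 500 to 1000 bp after it.

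**Figure D2:**
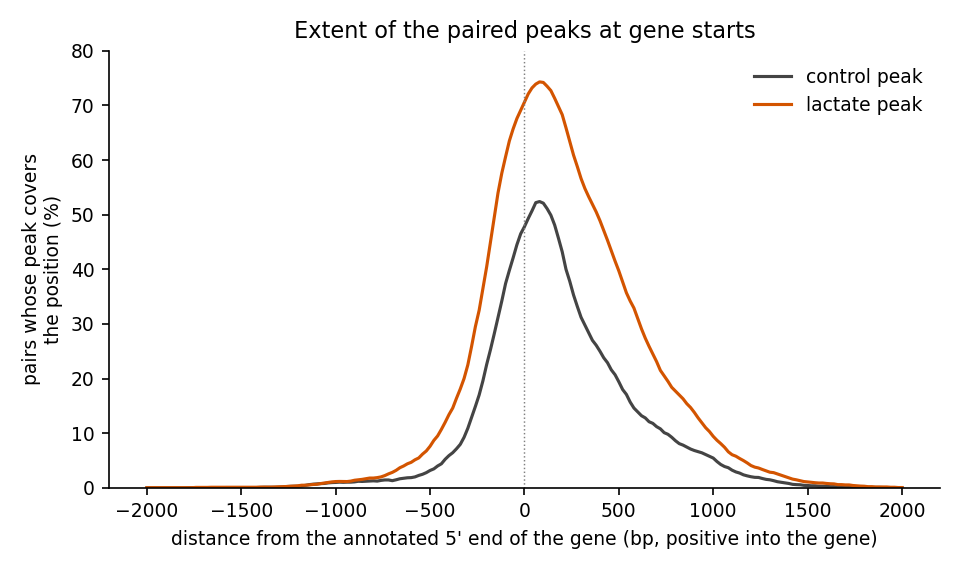
The share of the 3746 pairs at gene starts whose control peak (grey) or lactate peak (orange) covers each position, against distance from the annotated 5′ end in bp, positive into the gene. Both curves are highest 80 bp past the start, at 52.4% (control) and 74.3% (lactate), and at 500 bp into the gene they stand at 19.4% and 39.7%.

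Promoters of these genes were rich in CG. A 300-base promoter, 250 bases before to 50 after the start, was available for 3395 genes with a pair at the 5′ end, and its median CG count was 22. Over all 17274 protein-coding genes with a promoter in the table the median was 14. At least 10 CG dinucleotides were found in 87.0% of the former and 57.9% of all, and at most 2 in 2.0% and 18.7%. Genes called at an end in the lactate library alone had a median of 20, those called in the control alone 6 and those with no gene-end call 5. GC boxes were present in 85.6% of the promoters at these pairs and 61.3% of all, ETS-type motifs in 19.3% and 12.1%, and NRF1 cores in 6.72% and 3.64%. TATAAA was present in 6.04% and 13.4%. The cAMP response element was found in 3.51% and 2.36%, and CCAAT was about equally frequent, 39.2% and 39.6%. No motif contains another, both strands were searched, and CG-rich sequence by itself holds more GC boxes, so a match is a description and not a bound site.

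The height ratio followed the CG count. Genes with at most 2 CG dinucleotides had a median summit ratio of 1.09 (1.0 to 1.29, 68 genes), those with 3 to 9 had 1.35 (1.31 to 1.40), those with 10 to 19 had 1.5 (1.47 to 1.52), those with 20 to 29 had 1.58 (1.56 to 1.61), and those with 30 or more had 1.62 (1.59 to 1.65). Width ratios ran in the same order, from 1.18 to 1.73. The 174 genes at whose start the lactate summit was no higher had a median of 10.5 CG dinucleotides. Gene length showed no such order: median summit ratios were 1.55 for genes up to 10 kb, 1.53 from 10 to 30 kb, 1.56 from 30 to 100 kb and 1.5 above 100 kb.

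**Figure D3:**
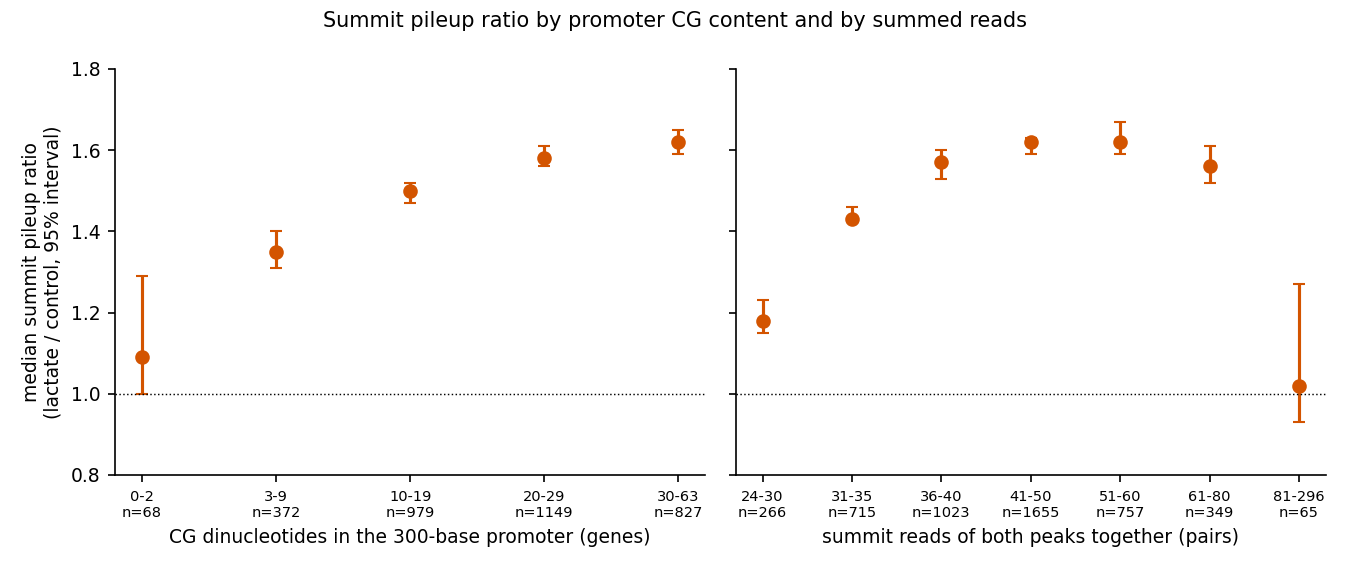
Median lactate over control ratio of summit reads, with its 95% interval, by the number of CG dinucleotides in the promoter (left, genes with a pair at the 5′ end) and by the summed summit reads of both peaks (right, all pairs). The left medians climb from 1.09 to 1.62, and the right medians lie between 1.43 and 1.62 from 31 to 80 reads with 1.18 at 24 to 30 reads, where the calling floor limits the ratio, and 1.02 at 81 to 296 reads.

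Shared peaks away from gene ends had smaller ratios, and those at several gene ends had larger height ratios. Where 1 control peak met the ends of 2 or more genes (941 pairs), the median summit ratio was 1.62 (1.58 to 1.63) and the median width ratio 1.63, and 63.7% of pairs reached 1.5 in height. Inside genes but away from their ends (6126 pairs) the medians were 1.19 (1.18 to 1.20) and 1.10. Farther than 10 kb from any gene (2595 pairs) they were 0.941 (0.933 to 0.955) and 0.941, with the lactate summit higher in 40.7% of pairs. Local background differed in the same order, with median ratios of 1.63 at 1 gene end, 1.3 inside genes and 1.03 far from genes. Fold ratios had medians between 0.953 and 1.02 in every one of these places. With 1 library per treatment, a difference between places cannot be told apart from a difference between these 2 preparations.

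**Figure D4:**
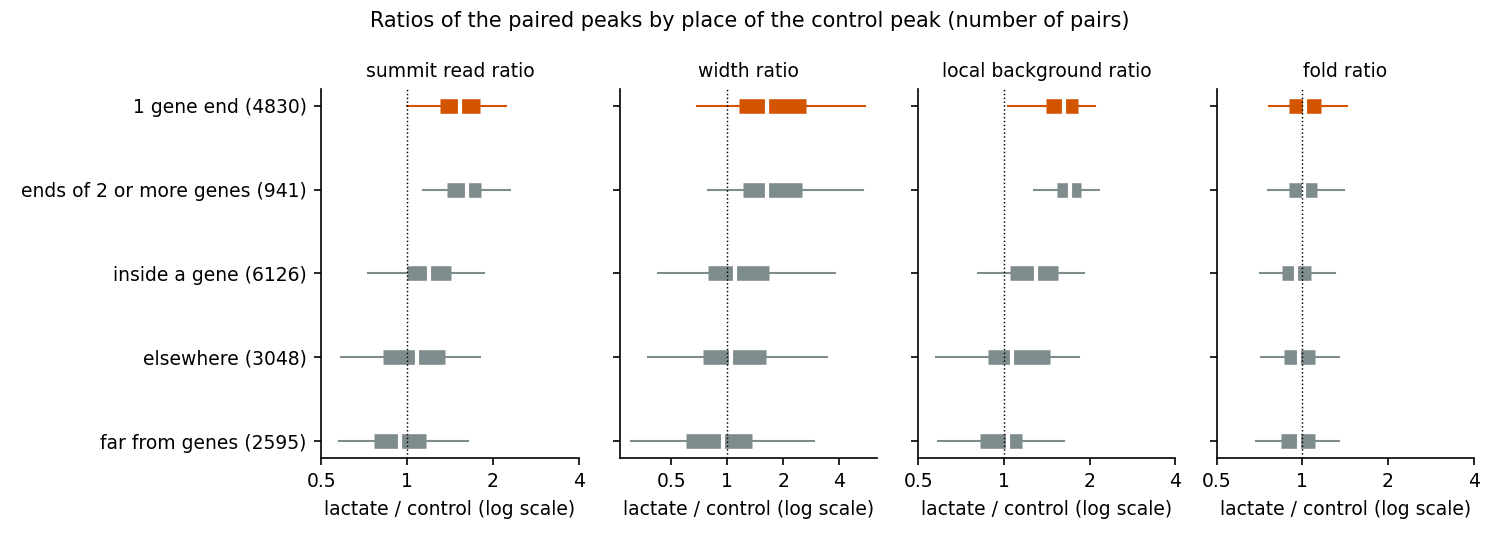
Lactate over control ratios (log scale) of summit reads, width, local background and fold for shared pairs, by where the control peak lies. White marks are medians, thick bars the middle 50% and thin lines the middle 90% of pairs. Pairs at 1 gene end (orange) have medians of 1.54, 1.64, 1.63 and 1.02.

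Symbols that hold a Gm number or end in Rik were left out of the rankings below. Among pairs with at least 50 summit reads in all, the largest height ratios were at Tmem106b, Cfap97, Hic2, Cnrip1, Zfp62 and Nfe2l2. Tmem106b, which encodes a lysosomal membrane protein, had 13 control reads (95% Poisson interval 6.92 to 22.2) and 44 lactate reads (32.0 to 59.1), a ratio of 3.38 (1.79 to 6.85), and widths of 161 and 1175 bp. At Nfe2l2, the gene of the oxidative stress regulator NRF2, 13 reads stood against 39, and 311 bp against 1441 bp. Hic2 had 13 and 42 reads, Cfap97 12 and 39, and Cnrip1 and Zfp62 15 and 46 each. At Tmem106b, Cfap97, Cnrip1 and Nfe2l2 the lactate peak overlapped 2 control peaks, and its values are set against a single control peak. Deposited fold rests on the same summit reads that ranked these 6 genes, so it is no separate check of them. It was higher in the lactate library at all 6, from 3.04 to 5.71 at Tmem106b and from 3.32 to 4.98 at Zfp62. All 6 control summits were at or below 15 reads, close to the lowest height called, 11 reads.

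With the same symbols left out, the largest gains in width were at Zmynd11, Mier3, Gid4 and Top2b. At each of these genes the lactate peak overlapped 2 control peaks, and its width is set against that of a single control peak. Zmynd11, which encodes a reader of a methylated histone variant, had a control peak of 478 bp and a lactate peak of 2124 bp, with 44 and 60 summit reads. Top2b, which encodes a DNA topoisomerase, went from 231 to 1734 bp and from 14 to 40 reads. Mier3 and Gid4 went from 137 to 1664 bp and from 111 to 1624 bp. The largest losses, again without those symbols, were at Wnk3, Npbwr1, Clvs2 and Olfr796. The Wnk3 peak, at a kinase gene on chromosome X, was 1166 bp wide in control cells and 500 bp with lactate, although the lactate summit was the higher, 26 against 16 reads. At Clvs2 both measures were lower in the lactate library, 139 against 737 bp and 12 against 21 reads.

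Among pairs with at least 50 summit reads in all, and leaving out Gm-number symbols, the smallest height ratios were at Prb1, Speer4c, Vmn2r2, Tdpoz4, Prh1 and Zfp971. Prb1 and Prh1 encode salivary proline-rich proteins, Vmn2r2 a vomeronasal receptor, Speer4c and Tdpoz4 members of expanded mouse gene families, and Zfp971 a zinc finger protein. Prb1 had 37 control reads (26.1 to 51.0) and 15 lactate reads (8.40 to 24.7), a ratio of 0.405 (0.207 to 0.757), at its 3′ end. Vmn2r2 had 72 and 43 reads, Speer4c 67 and 40, Tdpoz4 39 and 24, Prh1 35 and 22, and Zfp971 30 and 20. The ratio intervals of Tdpoz4, Prh1 and Zfp971 reached past 1. Of the 35 pairs with a ratio of at most 1/1.5, 12 lay at 3′ ends and 15 at genes named only by a Gm number, against 168 and 116 of all 4830. Their local background had a median of 4.82 control reads, and of 3.06 with lactate, the genome-wide floor of that library. The 70 pairs with a control background over 8 reads had a median summit ratio of 0.909 (0.852 to 0.982). Several of these genes belong to families with near-identical copies, between which reads may be shared, and the part of read mapping in these values was not tested.

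With symbols that hold a Gm number or end in Rik left out, the tallest shared peaks differed less, and 4 of the 6 lay at 3′ ends. Wls, Arhgap25, Adgrf2, Lars2, Oasl1 and Jpt1 had the highest of these summits common to both libraries, with ratios from 0.915 at Adgrf2 to 1.42 at Lars2. Among the symbols left out, A530032D15Rik had a taller common summit than Jpt1, with 65 control and 63 lactate reads. Jpt1, which had 61 control and 62 lactate reads at its 3′ end, had a local background of 9.18 and 13.0 reads. Sp110 had 52 reads in each library over a background of 19.6 and 17.0. At the edge of the rule, the pairs at Olfr699 and Grk3 shared 1 bp with their partner. The control peaks at Rnps1 and Rbbp5, with 17 and 18 reads, were left out because the nearest lactate peak lay 1 and 2 bp away.

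Genes of general cell functions often carried such a pair. Of 30 membrane traffic genes 22 did (73.3%), as did 16 of 24 proteasome and ubiquitin genes (66.7%), 13 of 24 ribosomal protein and translation factor genes (54.2%) and 12 of 24 autophagy and lysosome genes (50%). The share over all protein-coding genes was 20.1%. The lists were chosen with earlier results of these data known, and their counts are descriptions. Over all genes with a pair, the tallest pair of each gene had a median summit ratio of 1.53 and a median width ratio of 1.57. Of these 4348 genes, 4061 had the higher summit and 3632 the wider peak in the lactate library, and 2403 had a summit ratio of at least 1.5.

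In the proteasome and ubiquitin list, 16 of 16 genes had the higher summit in the lactate library, near the 4061 of 4348 over all genes with a pair. A ratio of at least 1.5 was reached by 14 of the 16, against 2403 of the 4348. Cul1, a scaffold of ubiquitin ligases, had 22 control and 43 lactate reads, and Psmd12, of the proteasome's regulatory particle, had 23 and 40. The largest ratio was at Psmd4, a ubiquitin receptor of the proteasome, with 12 and 29 reads, and the smallest at the catalytic subunit Psmb5, with 16 and 18. Among translation genes, 13 of 13 were higher and 10 reached 1.5, led by the initiation factor Eif5 with 12 and 33 reads. Rpl11 had 20 and 40 reads and Eif3e 27 and 38. Of 9 ribosome biogenesis genes with a pair, 8 were higher. Rrs1 had 25 and 38 reads and Rrp1 26 and 36, while Pes1 had 25 and 23.

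Membrane traffic genes had a median of 21 control reads, against 17 over all genes with a pair, and a median summit ratio of 1.46. The cell cycle list, with 22 control reads, and the autophagy and lysosome list, with 21.5, were higher still. Rab1a, a GTPase of traffic from the endoplasmic reticulum to the Golgi, had 27 control and 42 lactate reads, and Sec23a, of the COPII coat, had 29 and 39. Of the 22 genes, 19 were higher in the lactate library and 9 reached 1.5. The 3 that were not were also genes of early secretory or endosomal traffic: Sar1a with 33 and 31 reads, Rab5a with 26 and 25, and Sec13 with 22 and 20. In the autophagy and lysosome list 12 of 12 were higher and 4 reached 1.5. Beside both lists, 4061 of all 4348 genes with a pair were higher and 2403 reached 1.5. Atg5 and the autophagy receptor gene Sqstm1 each had 28 and 37 reads, and Gabarapl2 had the largest ratio, with 14 and 29.

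Of 25 glycolysis and lactate genes 9 had a pair, and all 9 were taller and wider in the lactate library, 7 of them by at least 1.5 in height. That share, 36.0%, was the same as in the splicing list, and over all protein-coding genes 20.1% had a pair. Over all 4348 genes with a pair, 4061 were taller, 3632 were wider and 2403 reached 1.5 in height. Eno1 had 23 control reads (14.6 to 34.5) and 46 lactate reads (33.7 to 61.4). Slc2a3, a glucose transporter, had 23 and 39 reads, and 437 bp against 1004 bp, where the lactate peak overlapped 2 control peaks. Slc16a1, which encodes the lactate transporter MCT1, had 14 and 28 reads, and 145 bp against 1115 bp. The pyruvate dehydrogenase genes Pdha1, Dlat and Pdhb had 14 and 27, 20 and 29, and 19 and 23 reads. In the respiratory chain and TCA cycle list 8 of 24 genes had a pair (33.3%), 8 were higher and 4 reached 1.5. Fumarase (Fh1) had 21 and 36 reads and Cox6c 25 and 30.

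Genes of chromatin enzymes had similar values. Of 26 histone acylation genes, 11 had a pair (42.3%), against 20.1% of all protein-coding genes, and 10 reached 1.5. The acetyltransferase Ep300 had 18 control and 35 lactate reads, the deacetylase Hdac2 25 and 41, and Acss2, which makes acetyl-CoA, 23 and 41. Of 33 histone and DNA methylation genes 11 had a pair, all higher, and 9 reached 1.5, against 4061 higher and 2403 at 1.5 or more of all 4348 genes with a pair. Kmt2e had 19 and 42 reads, Ehmt1 20 and 36, and Ezh2, the Polycomb methyltransferase, 16 and 33. In the transcription machinery list 8 of 26 genes had a pair and 4 reached 1.5. Cdk7, the kinase of TFIIH, had 45 and 51 reads over a background of 9.34 and 13.7, and Gtf2b had 27 and 24.

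In the splicing list 9 of 25 genes had a pair, 8 higher and 7 by at least 1.5. Rbm25 had 25 and 41 reads and Sf3b1, of the U2 particle, 19 and 33. Srsf11 had 22 and 20 at its 3′ end. Among DNA replication and repair genes 9 of 28 had a pair, 8 of them higher and 5 by at least 1.5. Mcm6 had 23 and 46 reads and Mcm3 16 and 30. Of 25 cell cycle genes 10 had a pair, all 10 higher and 7 by at least 1.5, with Cdk4 at 27 and 46 reads and Ccnb1 (cyclin B1) at 23 and 43. The Cdk4 peak was nonetheless the narrower in the lactate library, 431 against 604 bp. Over all protein-coding genes 20.1% had a pair, and of those 4348 genes 4061 were higher and 2403 reached 1.5. Srsf11, Pes1 and the traffic genes without a higher lactate summit were named after their values were seen, as were the extremes and other genes beyond the 2 tallest of each of these lists.

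Of 20 noradrenergic neuroblastoma genes 4 had a shared gene-end peak (20%), against 20.1% of all protein-coding genes. Chgb, a granin of secretory vesicles, had 23 control and 40 lactate reads. Isl1 had 30 and 30, Tbx2 14 and 20, and the vesicular monoamine transporter Slc18a2 13 and 16. Peaks at Chgb, Isl1 and Slc18a2 were narrower in the lactate library. Of 22 neuronal cytoskeleton and synapse genes, 6 had a pair (27.3%) and 6 were higher. Among them Syt1 had 23 and 39 reads, Homer1 19 and 34, Snap25 12 and 26, and Map2 18 and 19, while Stx1a and Syn1 each had 14 and 20. The Syn1 peak went from 101 to 851 bp. Of 23 channel and receptor genes 4 had a pair (17.4%), all 4 higher in the lactate library. Among these, Cacna1b had 16 and 26 reads, Gabbr1 16 and 23, and Cacna1a 13 and 20. Over all 4348 protein-coding genes with a pair, 4061 were higher. None of 26 developmental transcription factors and none of 25 markers of other cell types had one, although 2 and 1 of them had a gene-end peak with lactate alone, and 1 of each in the control alone. Of 11 markers chosen for noradrenergic neuroblastoma, Isl1 alone had a pair, while Phox2a was called at an end with lactate and Hand2 in the control. Of 4 neuronal markers Map2 alone had a pair, while Tubb3, Stmn2 and Elavl4 were also called with lactate and Stmn2 also in the control. Of 17 markers of glia, blood, endothelium, fibroblasts, epithelium and liver none did, and the myelin gene Mbp was the one called at an end in either library.

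**Figure D5:**
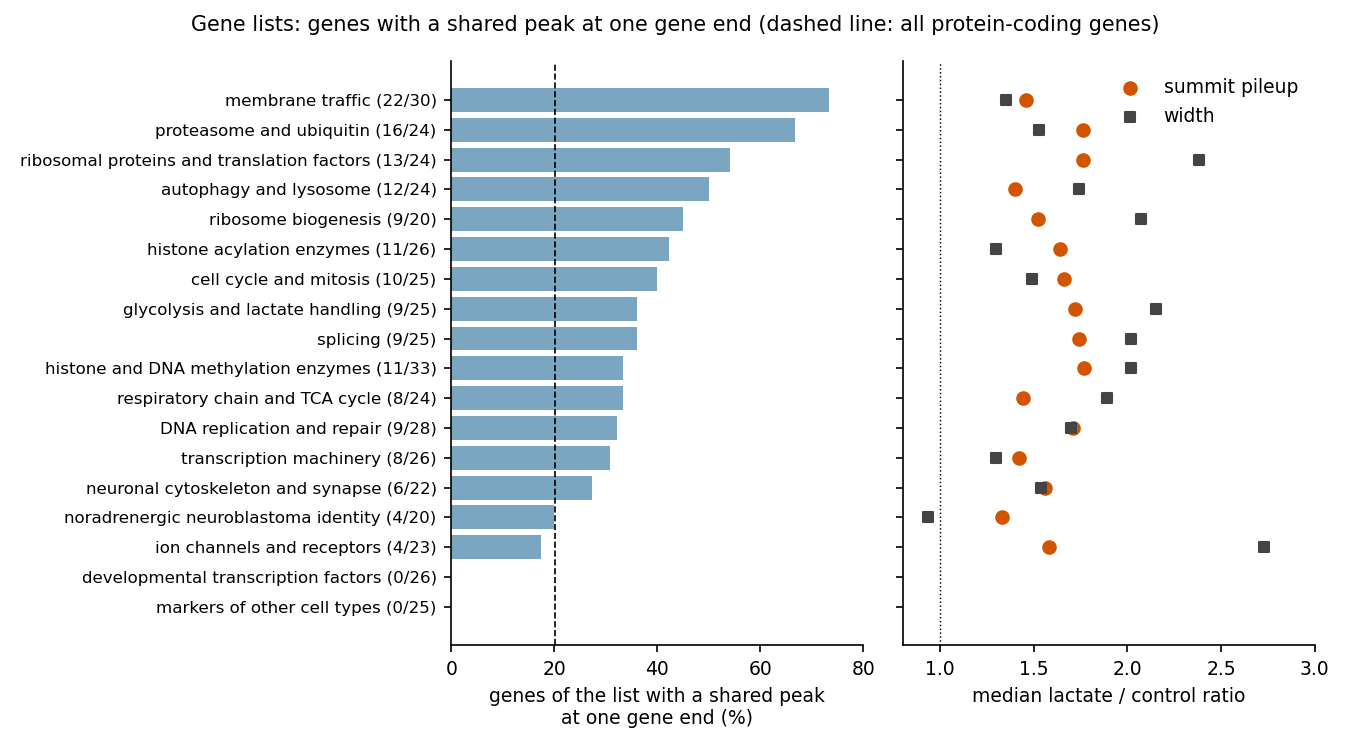
Left, share of each gene list with a shared peak at 1 gene end (counts in brackets), beside the 20.1% of all protein-coding genes (dashed line). Right, the median lactate over control ratio of summit reads (orange) and width (grey) over those genes, which lies above 1 for every list with a value except the width of 4 noradrenergic genes, 0.934.

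Chromosomes differed little in height ratio. Medians ran from 1.44 (1.36 to 1.52) on chromosome 13 to 1.64 (1.58 to 1.71) on chromosome 12. Width ratios ranged more widely, from 1.3 (1.23 to 1.42) on chromosome 13 to 2.14 (1.75 to 2.61) on chromosome X. The median control background was at its floor of 2.96 reads on chromosomes 7, 9, 14, 18, 19 and X, and highest on chromosomes 15, 8 and 13, at 4.12, 4.04 and 4.02 reads. Of the protein-coding genes of chromosome 8, 29.6% had a pair, against 7.56% on chromosome X. The copy number of the chromosomes in this line was not analysed here.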

How the data were processed

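H4K12la CUT&Tag libraries of Neuro2a cells given NaCl or 25 mM lactate, 1 each, were grouped by the treatment in the labels. BWA, deepTools, MACS2 and the build mm10 are named in the submitters' processing notes; versions, settings and any input control or spike-in were not given in the sources used here. Deposited by the authors was 1 MACS2 peak list per library: fold enrichment (a ratio of summit pileup to local background), −log10 p, −log10 q (lowest 1.3) and a score of 10 times the −log10 q. Peaks on Y and the mitochondrial genome were left out (37 control and 47 lactate lines). Solving fold and −log10 p returned whole reads, to a tolerance of 0.001 in −log10 p, for all 46561 control and 39727 lactate peaks, and for 100% of 20000 simulated peaks. Read totals are not in the lists. Depth was compared through the genome-wide background.

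Genes and promoters came from RefSeq tables of GRCm38.p6. Each control peak was paired with the lactate peak that shared the most bases. Medians have distribution-free and shares exact (Clopper-Pearson) 95% intervals; summit reads have exact Poisson and ratios exact conditional intervals. All 450 entries of 18 gene lists matched a gene, 1 through an older symbol. The regions, lists and rules were chosen with earlier results of these data known. Named genes are the 6 with the highest common summit, the 6 highest and 6 lowest height ratios with at least 50 reads in all, the 4 largest width gains and losses, the 2 tallest pairs of each list (all pairs for the identity lists) the 2 tall pairs nearest a ratio of 1 and pairs at the edge of the rule; Gm-number and Rik symbols were skipped. Some genes that the rule names are not reported here. Promoters were to be shown for 7 pairs, but 3 of these had a promoter that overlapped both peaks, and 4 others were added. Alternatives were other windows, overlaps, thresholds, partners and scales. Work used Python 3.11.15, numpy 2.4.6, pandas 2.3.3, scipy 1.17.1 and matplotlib 3.10.9.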

Additional observations from a re-analysis of the deposited data

How the results depend on the processing

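The median width ratio and the median ratio of summit reads stayed above 1 under every alternative run on them, and their size varied. With deposited fold in place of reads the median was close to 1. By fold, 10 named pairs with a summit ratio of at least 1.5 fell below 1. Further named pairs with smaller summit ratios also crossed 1, such as Zmynd11 (summit ratio 1.36, fold ratio 0.856). Olfr796 crossed in the other direction (0.818 and 1.12). With a 2 kb window 82.4% of pairs were wider in the lactate library, the median summit ratio was 1.53 and 55.1% of pairs reached 1.5. When each peak had to share at least 0.5 of its bases with the other, 2504 pairs remained, with a median width ratio of 1.26, 78.1% wider, a median summit ratio of 1.47 and 49.1% at 1.5 or more; that criterion by its construction leaves out pairs of unequal width. Where both peaks had a −log10 q of 5 or more there were 1190 pairs, with 1.32, 1.41 and 39.7% for width ratio, summit ratio and share at 1.5. Taken from the lactate list, the values were 1.56, 82.2%, 1.53 and 54.4%, and for pairs in which each peak overlapped only the other they were 1.5, 82.6%, 1.52 and 54.0%. Scaled by depth the summit ratio was 1.49 and the share 49.0%; after subtraction of the local background they were 1.52 and 51.9%; with deposited fold they were 1.02 and 3.31%. A 500 bp window, the tallest partner, and leaving out control summits over 60 reads or, an alternative added after seeing the data, control backgrounds over 8 reads moved none of these values beyond their intervals. Of 70 named pairs, 10 with a summit ratio of at least 1.5 had a fold ratio below 1: Wnk3 (0.958), Slc2a3 (0.909), Sf3b1 (0.856), Rrs1 (0.949), Cul1 (0.948), Cdk4 (0.896), Acss2 (0.987), Rab1a (0.944), Homer1 (0.886) and Cacna1a (0.908). Of 18 gene lists, 16 lost more than 1.5 times in their number of pairs at the stricter threshold. No paired analysis was possible because each group holds 1 library. No summit below 11 reads was called, so what lies under that height was not measured.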

Other observations

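Genes called at an end in the lactate library alone were close in promoter sequence to genes with a shared pair at the 5′ end. Counted by peak, 4308 lactate peaks at 1 gene end had no control partner, while 4634 had one. The lactate list held 39727 peaks, and its share without a partner over the whole list was not counted. Those 4308 peaks had a median of 19 summit reads, a width of 220 bp and a local background of 4.74 reads. Counted by gene, 2811 promoters of genes called in the lactate library alone held a GC box in 81.8% of cases. They held at least 10 CG dinucleotides in 82.5%. The values were 85.6% and 87.0% for genes with a shared pair at the 5′ end, and 51.3% and 45.3% for the 150 with a shared pair elsewhere. Promoters of genes called in the control alone were closer to those with no gene-end call, with GC boxes in 46.0% and 42.3% and TATAAA in 16.5% and 19.6%. Genes with a shared pair at the 5′ end had a median length of 28.4 kb, and the 150 with a shared pair elsewhere 10.0 kb. The median was 19.9 kb for other genes called in both libraries, 17.9 kb for lactate-only, 11.1 kb for control-only and 12.1 kb for uncalled genes.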
